A study of Homo sapiens with 52 samples.

Results

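S100 proteins and annexins were followed through the arrays by 10 genes, S100A4, S100A6, S100A10, S100A11, S100A13, ANXA1, ANXA2, ANXA3, ANXA5 and ANXA6. Every probe set that the array annotation assigned to 1 of these symbols alone was taken, which gave 17 probe sets (8 of S100 genes and 9 of annexins) of 34491 assigned to a single gene; 17518 genes had such a probe set. The genes were selected on a measured value, the low signal of S100A11 on day 3, so the day 3 values below are descriptions without a test. The samples were H1 human embryonic stem cells differentiated with 5 µM retinoic acid for 1 to 10 days, HUES8 and H9 cells that were not differentiated, and H1 cells before treatment (day 0). All lines were maintained in mTeSR medium on Matrigel, and no genetic change is given for any group. Each of the 13 groups had 2 biological replicates, which the labels do not describe further, so p-values measure the spread between these pairs. Each replicate was read on an A and a B chip, giving 26 arrays per chip.

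S100 proteins are small proteins that mostly change shape on binding calcium and then grip partner proteins, while annexins bind acidic phospholipids of membranes when calcium is present. The families meet in pairs: S100A10, which does not itself respond to calcium, joins ANXA2 in a complex that organises the plasma membrane and its actin, and S100A11 binds ANXA1. Both families are abundant in epithelial and mesenchymal cells. Retinoic acid, a vitamin A derivative, acts through nuclear receptors and drives stem cells out of the pluripotent state.

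The chips carried no untreated H1 cells of days 1 to 10, so retinoic acid and days in culture cannot be told apart. Between 44.8% and 54.2% of A chip probe sets were called present (detection p under 0.05), and between 31.1% and 40.1% on the B chip. The cell type given in the labels was checked with 8 markers of human embryonic stem cells, and 8 of 8 were present on both arrays of H9, of HUES8 and of H1 day 0. All 8 were lower on day 10, where their summed signals were 18915 and 18799, against 84789 and 84318 on day 0. Of 7 simple epithelium markers, 7 were called higher on day 10 (summed signals 71360 and 76546, against 19168 and 19953 on day 0). Of 7 mesenchyme and matrix markers, 3 were higher and 1 lower (30102 and 23093 on day 10, against 11810 and 14206 on day 0). None of 4 blood markers entered the model, and of 3 endothelial markers measured 1 was lower (338 and 514 on day 10, against 1306 and 1126). The part of these shifts in the values below was not tested, and in such bulk RNA fewer cells of a type and less RNA per cell cannot be told apart.

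Of the 17 probe sets, 13 were called present on at least 2 arrays of their chip and entered the model. Another 4, of S100A6, S100A13, ANXA1 and ANXA6, were present on 0 of 26 arrays and have no usable level. Of the 13, 11 were present on all 26 arrays, the B chip probe set of S100A10 (238909_at) on 15 and S100A4 on 11. The present calls of 238909_at were on day 0 replicate 2 and on arrays of days 5 to 10, H9 and HUES8, so this probe set passed through groups in which it was high. Changes are differences of mean log2 signal between groups ± SE (n = 2 per group) from a limma fit, with Benjamini-Hochberg adjusted p over 21528 probe sets. A change was called at an adjusted p under 0.05.

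S100A11, a partner of ANXA1 that is also found outside the cell, had the widest range of the 13 probe sets in H1 cells: its highest daily mean, on day 9, was 12.8 times its lowest, on day 2. In replicates 1 and 2 the MAS5 signal of S100A11 (200660_at) was 1835 and 2496 on day 0, 1315 and 1091 on day 1, 338 and 460 on day 2, and 527 and 350.9 on day 3. It then was 1631 and 672 on day 4, 2169 and 1678 on day 5, 3361 and 3465 on day 6, and 4903 and 3597 on day 7. On days 8, 9 and 10 it was 3775 and 3476, 4895 and 5180, and 4034 and 3112. The 4 arrays of days 2 and 3 were lower than all other 22 arrays of the chip, and the pairs of these 2 days overlapped. The low point of S100A11 was therefore a trough of 2 days: the geometric mean was 394 on day 2 and 430 on day 3. Day 3 was lower than day 0 by a factor of 4.98, and day 9 was 11.7 times as high as day 3.

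The test on day 2, which shares its day 0 arrays with the day 3 comparison that chose the gene, gave a change in S100A11 of -2.44 ± 0.30 (adjusted p = 4.2e-05), lower by a factor of 5.43. It was the 1 called member on day 2, 1 of 13 lower, beside 1.19% of all tested probe sets called lower and 1.86% called higher. S100A11 is the gene by which the members were chosen, so this count says nothing of the other members. The call held in 13 of 13 alternative fits, with changes from -2.66 to -2.22. On day 4 S100A11 was still called lower at -1.03 ± 0.30 (adjusted p = 0.046), with replicates that differed 2.43-fold. That call held in 6 of 13 alternatives: without day 4 replicate 2 the adjusted p was 0.607, and without day 0 replicate 1 or 2 it was 0.0728 or 0.318. The signal of S100A11 passed day 0 later, and was called higher on day 7 (0.97 ± 0.30, adjusted p = 0.038) and day 9 (1.23 ± 0.30, adjusted p = 0.0068). The day 7 call held in 6 of 13 alternatives (adjusted p of 0.27 without day 0 replicate 1, 0.0561 without day 0 replicate 2 and 0.228 without day 7 replicate 1). The day 9 call held in 10 of 13 (0.0891 without day 0 replicate 1, 0.0518 without day 9 replicate 2 and 0.0742 with the ACTB 3'/5' ratio, a measure of RNA integrity, as a covariate). On day 10 the change was 0.73 ± 0.30 (adjusted p = 0.096), called with quantile normalization (0.0471) and with only the groups compared (0.0394), and the pair of day 10 lay above the pair of day 0.

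**Figure D1:**
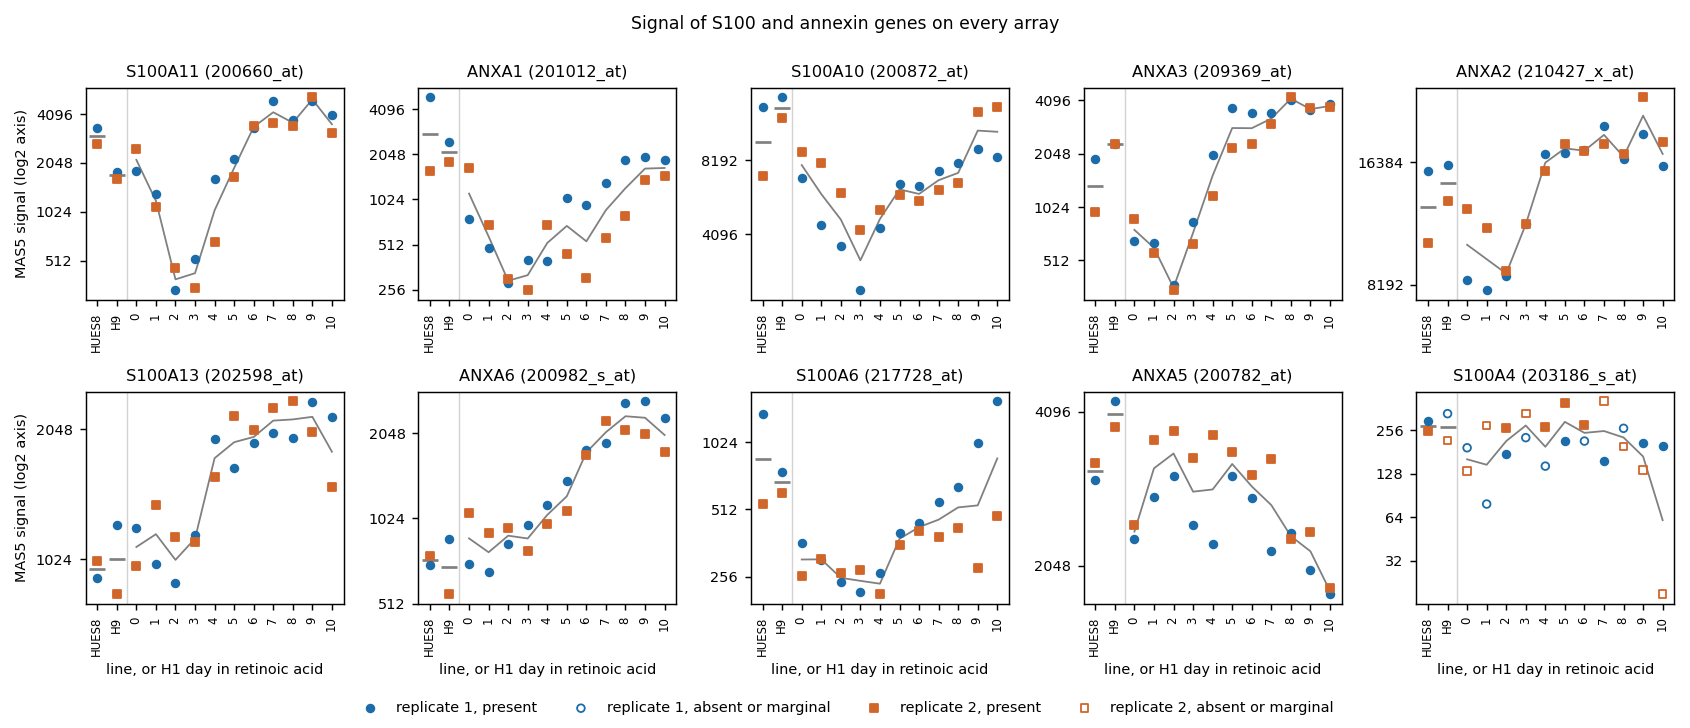
MAS5 signal (log2 axis) of the leading probe set of each gene on every array, for HUES8, H9 and H1 by day in retinoic acid; points are single arrays, open where not called present, and lines and bars are geometric means. The 4 arrays of S100A11 on days 2 and 3 lie between 338 and 527, and ANXA3 and ANXA2 lie higher on days 5 to 10 than on day 0.

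ANXA1, an annexin known for damping inflammation and the binding partner of S100A11, was also low on days 2 and 3. Its signals (201012_at) were 753 and 1671 on day 0, 487 and 691 on day 1, 284 and 303 on day 2, 404 and 253 on day 3, and 397 and 693 on day 4. From day 5 the replicates stood further apart, with 1044 and 446 on day 5, 946 and 306 on day 6, 1328 and 570 on day 7, and 1882 and 789 on day 8. The pairs came closer again at 1971 and 1378 on day 9 and 1870 and 1479 on day 10. All 4 arrays of days 2 and 3 were lower than both arrays of day 0. The day 2 change of ANXA1 was -1.94 ± 0.59 and missed the threshold (adjusted p = 0.085); the day 0 replicates differed 2.22-fold. The change was also not called in 11 of 13 alternatives. With only the 2 groups compared in the fit the adjusted p was 0.0036, and blocking on the replicate number gave 0.0312.

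S100A10, the partner of ANXA2, had its lowest mean on day 3 in both of its probe sets. On the A chip (200872_at) its signals were 6957 and 8828 on day 0, 4469 and 7979 on day 1, 3662 and 6038 on day 2, 2422 and 4248 on day 3, and 4362 and 5127 on day 4. They ranged from 5573 to 7998 over days 5 to 8, and were 9118 and 12867 on day 9 and 8484 and 13522 on day 10. Replicate 1 was the lower of the pair on days 0 to 4 and again on days 9 and 10, and the day 3 pair overlapped the day 2 pair. The day 3 mean was lower than that of day 0 by a factor of 2.44. The day 2 change was -0.74 ± 0.33 (adjusted p = 0.29). On the B chip (238909_at) both day 3 arrays, the higher at 163, were below the day 2 arrays (192 and 274) and the day 4 arrays (249 and 332), but none of these 6 was called present, so the B chip values of these days have no firm level. From day 5 on the B chip signals ran from 396 to 874, and 1 of the 12 arrays was not called present.

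The question of which members share the low day 3 of S100A11 was answered in 3 ways, none of them a test. With a dip defined as both day 3 arrays below all 4 arrays of days 2 and 4, 1 of 13 probe sets had one, the B chip probe set of S100A10, beside 4.31% of all tested probe sets. S100A11 itself did not, since it was as low on day 2. The B chip probe set of S100A10 was not called present on any array of days 2 to 4. Its dip, its lowest day and its difference given below therefore have no firm level. A second definition, chosen after the values were seen, asked for all 4 arrays of days 2 and 3 to lie below both arrays of day 0 and both of day 9. It was met by 3 of 13, S100A11, ANXA1 and the A chip probe set of S100A10, beside 4.44% of all. By the day of the lowest H1 mean, 7 of 13 were lowest on day 2 (11.7% of all) and 2 on day 3 (7.79% of all, both of them S100A10); 3 of the 7 were probe sets of ANXA2. The difference of day 3 from the mean of days 2 and 4 was -0.58 for S100A11, -0.56 and -0.77 for the probe sets of S100A10, -0.29 for ANXA1, and between -0.23 and 0.42 for the others. ANXA3 was low on day 2 alone, and in S100A6, S100A13, ANXA2, ANXA5, ANXA6 and S100A4 the pairs of days 2 and 3 overlapped that of day 0 or lay above it. Beside these values, the summed epithelial markers were 21207 and 18555 on day 2 and 42800 and 29533 on day 3, and the mean ACTB 3'/5' ratio was 1.39 on day 2, 1.46 on day 3 and 1.29 on day 0; their part was not tested.

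S100A11 and S100A10 are neighbours on chromosome 1, with 0 protein-coding genes between them in the RefSeq annotation, whereas 52 separate S100A11 from S100A6. Promoters of S100A11, S100A10 and ANXA1, which met the second definition, are shown with that of ANXA2, the partner of S100A10 that did not. They are the 250 bases before the start site, from RefSeq on GRCh38.p14, 5′ to 3′ on the strand of the gene. They lie at chr1:152037005-152037254 (minus strand) for S100A11, chr1:151993860-151994109 (minus) for S100A10, chr9:73151615-73151864 (plus) for ANXA1 and chr15:60397987-60398236 (minus) for ANXA2. Capitals mark every match on either strand to 5 motifs: the GC box GGGCGG, the TATA box TATAAA, the CCAAT box CCAAT, the AP-1 site TGANTCA and the nuclear receptor half-site AGGTCA.
S100A11: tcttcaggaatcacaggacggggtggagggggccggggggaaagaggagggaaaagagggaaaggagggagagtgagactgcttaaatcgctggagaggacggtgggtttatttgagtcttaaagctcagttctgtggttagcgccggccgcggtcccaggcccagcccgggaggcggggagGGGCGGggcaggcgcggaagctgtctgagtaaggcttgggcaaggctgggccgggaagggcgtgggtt
S100A10: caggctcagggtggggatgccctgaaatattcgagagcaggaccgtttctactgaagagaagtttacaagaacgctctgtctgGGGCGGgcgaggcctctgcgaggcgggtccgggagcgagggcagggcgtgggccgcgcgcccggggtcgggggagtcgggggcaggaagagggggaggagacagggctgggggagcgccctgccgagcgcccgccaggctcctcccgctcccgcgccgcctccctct
ANXA1: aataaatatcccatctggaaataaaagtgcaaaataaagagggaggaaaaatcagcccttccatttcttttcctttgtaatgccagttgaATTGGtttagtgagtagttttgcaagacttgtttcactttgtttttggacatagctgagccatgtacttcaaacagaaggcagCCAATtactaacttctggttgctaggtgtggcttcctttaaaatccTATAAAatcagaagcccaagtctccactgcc
ANXA2: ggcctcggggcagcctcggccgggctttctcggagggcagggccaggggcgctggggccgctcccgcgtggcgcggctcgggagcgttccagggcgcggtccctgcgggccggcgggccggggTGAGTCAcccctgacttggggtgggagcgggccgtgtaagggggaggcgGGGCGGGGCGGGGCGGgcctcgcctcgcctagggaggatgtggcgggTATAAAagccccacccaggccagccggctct
S100A11 had 1 GC box, 68 to 63 bases before the start, and S100A10 had 1, 167 to 162 bases before it. ANXA1 had a TATA box 31 to 26 bases before the start and 2 CCAAT boxes but no GC box. ANXA2 had a TATA box at the same distance, 3 overlapping GC boxes and 1 AP-1 site. RefSeq gave 3 start sites for S100A13 and 2 for ANXA6, and a gene is counted if any of its windows had a match, whereas the shares are per single promoter. Over the 10 genes, 7 had a GC box (42.6% of 35116 RefSeq promoters of this length), 4 a TATA box (10.7%), 3 a CCAAT box (32%), 1 an AP-1 site (6.57%) and 2 a nuclear receptor half-site (12.1%). The TATA and CCAAT boxes of S100A13 were before its second start. The 2 genes with a half-site were S100A4 and ANXA6. These matches are letters in a window and show no binding.

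By day 10, 7 of 13 member probe sets were called higher than on day 0, beside 11.3% of all tested probe sets, and 0 were called lower, beside 10.4%. The median change of the 13 was 0.74, against 0.03 over all. They stand for 5 genes, ANXA3, ANXA2 (3 probe sets), ANXA6, S100A13 and S100A6. The comparisons with day 0 all share its 2 arrays, so the days are not independent of each other.

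ANXA3, an annexin that inhibits phospholipase and promotes vessel growth, showed the largest called change. Its signals (209369_at) were 658 and 881 on day 0, 646 and 564 on day 1, 372 and 347 on day 2, 844 and 638 on day 3, and 2010 and 1180 on day 4. They were 3685 and 2216 on day 5, 3484 and 2334 on day 6, 3467 and 3010 on day 7, 4115 and 4251 on day 8, 3607 and 3700 on day 9, and 3881 and 3732 on day 10. Every array from day 4 on was above both arrays of day 0, and from day 8 the pairs differed little. Day 10 was 5.00-fold higher than day 0 (2.32 ± 0.30, adjusted p = 1.0e-05), a call that held in 13 of 13 alternatives. ANXA3 was first called higher on day 4 (1.02 ± 0.30, adjusted p = 0.043), where it held in 5 of 13; without day 0 replicate 1 or 2 the adjusted p was 0.32 or 0.0707, and without day 4 replicate 1 it was 0.378. The day 5 change of 1.91 ± 0.30 (adjusted p = 0.00021) held in 13 of 13. On day 2 the change was -1.08 ± 0.30 with an adjusted p of 0.051, just outside the threshold. It was also not called in 9 of 13 alternatives. It passed with the replicate number as a block (0.0118), the ACTB covariate (0.0261), only the groups compared (0.0414) and 1 leading probe set per gene (0.0444).

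ANXA2, which binds S100A10 and links membranes to actin, had 3 tested probe sets that moved alike. The signals of 210427_x_at were 16059 and 18331 on day 10, against 8398 and 12549 on day 0. Those of 201590_x_at were 18306 and 19396 on day 10, against 8696 and 11180 on day 0, and those of 213503_x_at 15482 and 17520, against 7377 and 9737. In all 3 the day 10 pair lay above the day 0 pair. Through the course, 210427_x_at ran from 7938 to 11531 on days 1 to 3 and from 16678.5 to 23609 on days 5 to 9, with no overlap between these spans. The changes were 0.74 ± 0.20 (adjusted p = 0.012), 0.93 ± 0.19 (0.0013) and 0.96 ± 0.19 (0.00097). The first of them was lost without day 0 replicate 1 (adjusted p = 0.203), without day 10 replicate 2 (0.0987) and with the ACTB 3'/5' ratio as a covariate (0.0648), while the others held in 12 of 12. One further probe set, annotated to ANXA2 and SNU13 together, was left out. The names of all 3 mark possible cross-hybridisation, so the level may include related transcripts. On day 5 the changes were 0.79 ± 0.20, 0.82 ± 0.19 and 0.86 ± 0.19 (adjusted p = 0.017, 0.0085 and 0.0056). Without day 0 replicate 1 the adjusted p on day 5 was 0.284, 0.137 and 0.113. S100A10 lay below its day 0 signals on days 2 and 3 while ANXA2, its partner, had 11523 and 11531 on day 3 (210427_x_at), inside its day 0 range.

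ANXA6, a large annexin that ties membranes to actin and cholesterol transport, had signals (200982_s_at) of 2316 and 1755 on day 10, against 707 and 1071 on day 0. Over days 1 to 4 the signals ran from 663 to 1137 and over days 6 to 9 from 1718 to 2654, and from day 5 on every array was above both day 0 arrays. The day 10 change of ANXA6 was 1.21 ± 0.25 (adjusted p = 0.0013), and it was first called on day 6. With the ACTB 3'/5' ratio as a covariate the day 10 adjusted p was 0.111. That ratio averaged 1.67 ± 0.31 on day 10 and 1.29 ± 0.019 on day 0 (SD, n = 2 each). Day 10 replicate 1 had 1.89 and replicate 2 had 1.45. The GAPDH 3'/5' ratio did not rise with it, averaging 0.805 on day 10 and 0.840 on day 0 on the A chip.

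S100A13, which takes part in the release of growth factors that lack a signal peptide, had signals (202598_at) of 2189 and 1509 on day 10, against 1208 and 987 on day 0. It lay between 902 and 1371 on days 1 to 3 and between 1509 and 2382 from day 4 on, with no overlap between these spans. The change was 0.81 ± 0.23 on day 5 (adjusted p = 0.029) and 0.74 ± 0.23 on day 10 (adjusted p = 0.025). The day 5 call held in 6 of 13 alternatives (0.057 without day 0 replicate 1, 0.22 without day 0 replicate 2, 0.269 without day 5 replicate 2). The day 10 call held in 9 of 13 (0.196 without day 0 replicate 2, 0.264 without day 10 replicate 1, 0.482 with the ACTB ratio). On day 9 it was 1.00 ± 0.23 (adjusted p = 0.0037), lost without day 0 replicate 2 alone (0.0579).

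S100A6, a protein of dividing and migrating cells also called calcyclin, differed strongly between replicates late in the course. Its signals (217728_at) were 1561 and 480 on day 10, against 362 and 258 on day 0, and 1014 and 281 on day 9. Before that they ran from 214 to 307 on days 1 to 4 and from 355 to 646 on days 5 to 8. The day 10 pair lay above the day 0 pair, but replicate 1 was 3.25 times replicate 2. The change was 1.50 ± 0.51 (adjusted p = 0.041), and it held in 4 of 13 alternatives. The adjusted p was 0.487 without day 10 replicate 1, 0.0739 and 0.232 without day 0 replicate 1 and 2, and 0.566 with the ACTB ratio, which was 1.89 in day 10 replicate 1 and 1.45 in replicate 2.

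The remaining members were not called on day 10. S100A10 differed from day 0 by 0.45 ± 0.33 on the A chip (adjusted p = 0.38) and by 1.11 ± 0.46 on the B chip (adjusted p = 0.094). The B chip change ran from 0.39 to 1.83 over the alternatives. That probe set passed the filter through groups in which it was high, and on day 0 only replicate 2 was called present. ANXA1 differed by 0.57 ± 0.59 (adjusted p = 0.56), and by -0.01 without day 0 replicate 1. ANXA5, which binds exposed phosphatidylserine, was called on no tested day. Its mean lay above that of day 0 on days 1 to 7 and below it on days 8 to 10. The signals of ANXA5 (200782_at) were 1804 and 1855 on day 10, against 2315 and 2466 on day 0, with pairs that did not overlap. Its highest mean among the H1 days was on day 2, with 3073 and 3751, and the day 10 change was -0.39 ± 0.22 (adjusted p = 0.24). S100A4, a marker of fibroblast-like and migrating cells, was near the detection limit throughout: 198 (present) and 18.9 (absent) on day 10, against 194 and 134 (both absent) on day 0. Its day 10 change of -1.40 ± 0.75 (adjusted p = 0.20) was 0.30 without day 10 replicate 2 and -3.09 (adjusted p = 0.0028) without replicate 1.

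Read day by day, 0 members were called on day 1, beside 0.757% of all probe sets called higher and 0.228% called lower. An unadjusted p under 0.05 was found there in 1 of 13, beside 2189 of all 21528. That member was S100A11. On day 4, 2 of 13 were higher (4.11% of all) and 1 lower (2.29%), S100A11, the gene by which the members were chosen. Then 5 were higher on day 5 (5.18%), 6 on day 6 (6.64%), 7 on day 7 (7.35%), 6 on day 8 (8.12%) and 7 on day 9 (9.68%). All tested ANXA2 probe sets were among those higher on each of days 5 to 9, so the counts of genes are smaller. On these days 0 members were lower, beside 3.49%, 5.12%, 5.76%, 5.75% and 7.99% of all from day 5 to day 9. ANXA3 and 1 ANXA2 probe set were first called higher on day 4, the other ANXA2 probe sets and S100A13 on day 5, ANXA6 on day 6, S100A11 on day 7 and S100A6 on day 10. The day 4 call of that ANXA2 probe set (213503_x_at, 0.68 ± 0.19, adjusted p = 0.034) held in 4 of 12 alternatives and was 0.353 without day 0 replicate 1. Leaving out day 0 replicate 1 cut the 40 higher calls over days 1, 2 and 4 to 10 to 21.

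**Figure D2:**
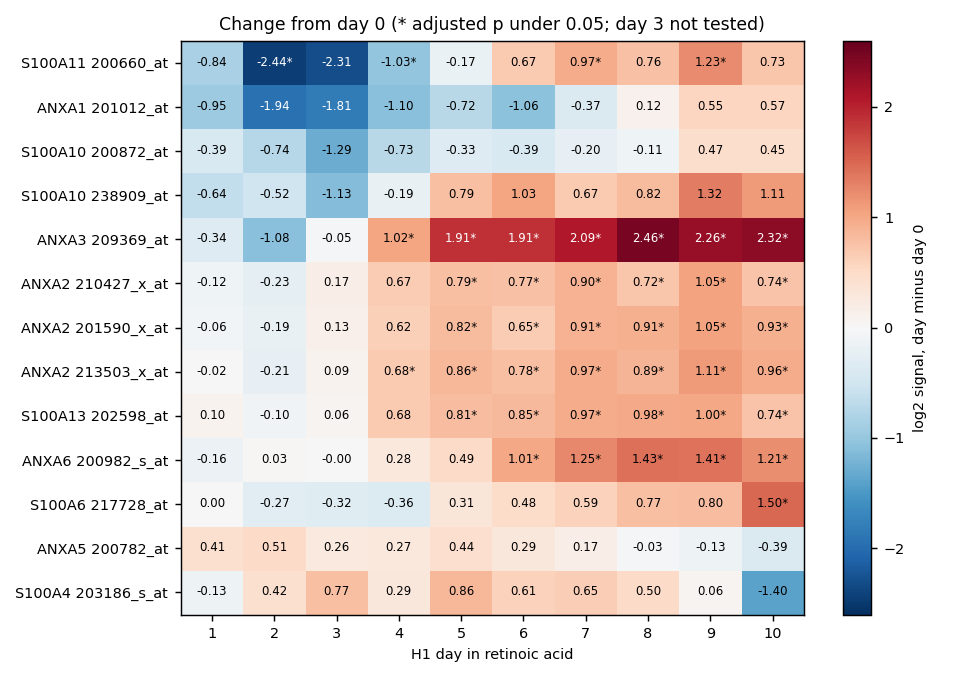
Difference of mean log2 signal from H1 day 0 for the 13 tested probe sets (rows) on each day in retinoic acid (columns, days), 2 arrays per group; stars mark an adjusted p under 0.05 and day 3 was not tested. S100A11, ANXA1 and S100A10 are below day 0 on days 1 to 4, and ANXA3 reaches 2.46 on day 8.

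The courses were compared through Pearson's r between the mean log2 signals of the 13 groups, 1 leading probe set per gene. These values describe the pattern; the groups share arrays, scaling and a common trend with day, so no p is given. S100A10 and ANXA1 were most alike outside the late risers (r = 0.93), and S100A6 followed ANXA1 (r = 0.88). ANXA2 resembled ANXA3 (r = 0.95), and S100A13 resembled ANXA6 (r = 0.92). S100A11 lay between these sets, with r = 0.82 to ANXA3 and 0.73 to ANXA1. S100A10 and its partner ANXA2 had r = 0.37. ANXA5 had a negative r with 8 of the other 9 genes and 0.70 with S100A4.

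**Figure D3:**
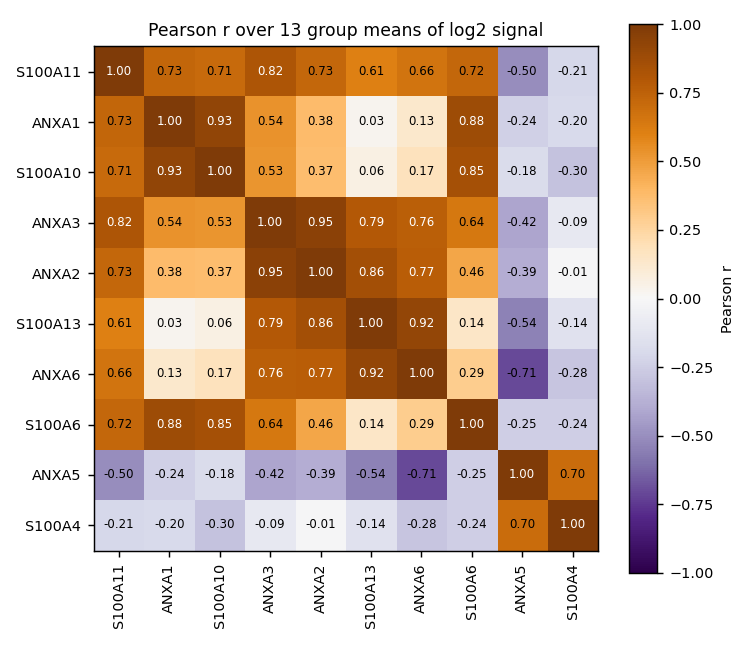
Pearson r between genes over 13 group means of log2 signal, with 1 leading probe set per gene on both axes. S100A10 with ANXA1 (0.93) and ANXA2 with ANXA3 (0.95) are dark, and ANXA5 is negative with 8 of 9.

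Among 12538 other tested A chip probe sets, those most like S100A11 over the 13 means were of AKT1, a kinase of survival signalling (r = 0.947), RCAN1, an inhibitor of calcineurin (0.945), SRSF8, a splicing factor (0.944), BAZ1A, a chromatin remodelling subunit (0.943), and IGFBP5, which binds insulin-like growth factors (0.942). Their geometric mean signals on days 2 and 3 were 132 and 153 for AKT1, 117.6 and 82.5 for RCAN1, 211 and 223 for SRSF8, 79.4 and 76.7 for BAZ1A, and 85.9 and 46.2 for IGFBP5. None of the 5 was called on day 2, with adjusted p between 0.066 and 0.57. The closest member was ANXA3, at rank 149 of 12538, and ANXA1 was at rank 527. Over the 11 H1 days alone, without H9 and HUES8, r with S100A11 was 0.86 for both ANXA1 and ANXA3.

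Among the undifferentiated lines, H9 was compared with H1 day 0. In H9, 1 of 13 members was called higher, beside 1.75% of all tested probe sets, and 0 lower, beside 2.53%. It was ANXA3, with 2331 and 2312 in H9 against 658 and 881 in H1 (1.61 ± 0.30, adjusted p = 0.0038; 0.0686 without day 0 replicate 1). Pairs did not overlap in 10 of 13, higher in H9 (24.8% of all), and in 1, lower in H9 (29.7% of all). The 10 include every tested probe set of ANXA2 and of S100A10, so fewer genes. They also include S100A4, which was not called present on any array of H9 or H1 day 0. The median difference of the 13 probe sets was 0.74, which is the value of S100A4 itself, against -0.04 over all. The summed mesenchyme and matrix markers were 19933 and 21490 in H9, against 11810 and 14206 in H1 day 0, and the summed epithelial markers 25973 and 27988, against 19168 and 19953. In HUES8 these sums were 24331 and 18352, and 22991 and 22872; their part was not tested. S100A10 had 14783 and 12197 in H9, against 6957 and 8828 in H1 (0.78 ± 0.33, adjusted p = 0.20). ANXA5 had 4297 and 3817 in H9, its highest of all groups, against 2315 and 2466 in H1 (0.76 ± 0.22, adjusted p = 0.056). The ANXA2 differences were 0.50 ± 0.20, 0.60 ± 0.19 and 0.62 ± 0.19 (adjusted p = 0.17, 0.076 and 0.069), that of S100A6 1.15 ± 0.51 (0.22) and that of ANXA1 0.93 ± 0.59 (0.43). The count of members higher in H9 was 6 when only H9 and H1 day 0 were fitted, with ANXA2 in it more than once. In that fit 1003 of all 21528 were called higher, against 376 in the main fit.

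In HUES8, 0 of 13 were called against H1 day 0, beside 0.0836% of all called higher and 0.0929% lower. An unadjusted p under 0.05 was found in 5 of 13, beside 1804 of all 21528, and these 5 include ANXA2 more than once. Pairs lay wholly above H1 day 0 in 7 of 13 (20.1% of all) and wholly below in 0 (23.6% of all). The 7 include ANXA2 more than once, and S100A4, which was not called present on day 0. HUES8 replicates differed widely in ANXA1, with 4923 and 1576, against 753 and 1671 in H1 day 0 (1.31 ± 0.59, adjusted p = 0.56). S100A6 had 1364 and 539 in HUES8, against 362 and 258 (1.49 ± 0.51, adjusted p = 0.38), and S100A11 had 3377 and 2697, against 1835 and 2496 (0.50 ± 0.30, adjusted p = 0.70). Between HUES8 and H9, 0 of 13 were called (1.56% of all higher, 0.855% lower). An unadjusted p under 0.05 was found in 2 of 13, beside 3257 of all 21528. S100A11 in HUES8 lay above both H9 arrays, 1802 and 1640 (0.81 ± 0.30, adjusted p = 0.18).

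**Figure D4:**
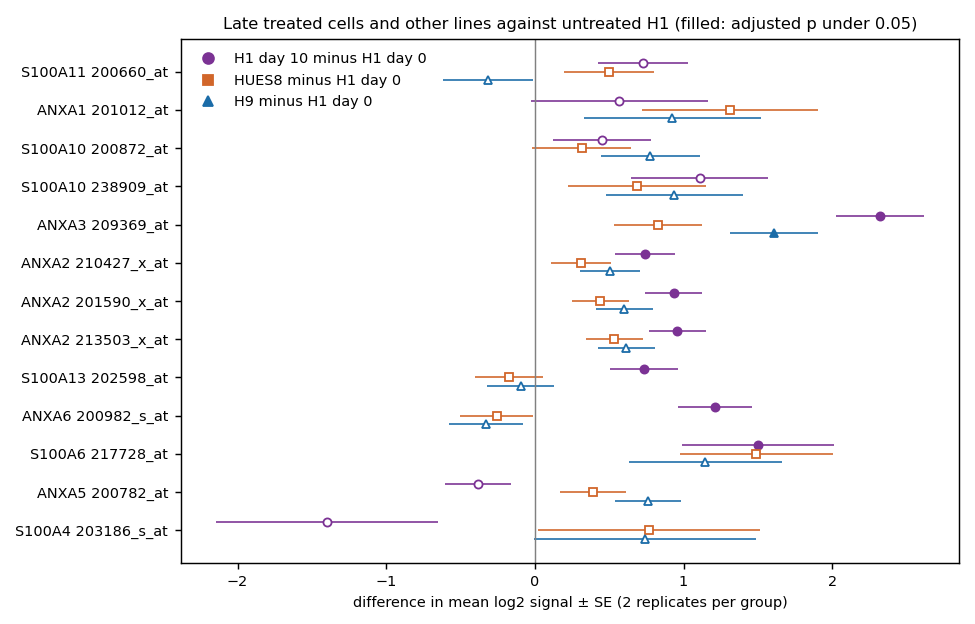
Difference in mean log2 signal from H1 day 0 ± SE for H1 day 10, HUES8 and H9 (2 arrays per group), with filled symbols at an adjusted p under 0.05. ANXA3 is filled for day 10 (2.32) and H9 (1.61), and no HUES8 symbol is filled.

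Ordered by mean, S100A11 was highest on day 9 and lowest on day 2. Of its 12 pairs of neighbouring groups in that order, 3 did not overlap, HUES8 over H1 day 0, H9 over day 1 and day 4 over day 3, and the other 9 could not be ranked by their arrays. For ANXA3, 7 of 12 neighbouring pairs did not overlap, and for ANXA1, S100A10 and ANXA2 none.

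Beyond the members, 27 other S100, annexin and partner genes were listed. Of these, 14 had under 2 present calls, 2 had no probe set of their own here and 11 were tested, 3 of them S100 genes and 4 annexins. On day 10, 3 of 11 were called higher, beside 11.3% of all, and 1 lower, beside 10.4%, with a median of 0.60 against 0.03 over all probe sets. AHNAK, a giant scaffold held at the membrane by S100A10 and ANXA2, had signals of 3286 and 4888 on day 10, against 200 and 174, both not present, on day 0. It was at least 21.5-fold higher (4.42 ± 0.29, adjusted p = 1.6e-09). ANXA11 was higher by 1.95 ± 0.19 (adjusted p = 2.9e-07) and ANXA4 by 1.32 ± 0.22 (adjusted p = 0.00021). CACYBP, which binds S100A6, was lower at -0.79 ± 0.15 (adjusted p = 0.00065), as were 2 of its other probe sets, while the remaining one was at 0.05 (adjusted p = 0.97). MYH9, the motor regulated by S100A4, was among the 7 not called (0.57 ± 0.26, adjusted p = 0.13). On day 2, when S100A11 was lower, 3 of the 11 were called higher, beside 1.86% of all, and 0 lower, beside 1.19%. ANXA4 differed by 2.12 (adjusted p = 4.96e-06). AHNAK (adjusted p = 0.00044) and ANXA9 (0.023) were not called present on either day 0 array, so no size is given, and ANXA9 was named after its values were seen.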

How the data were processed

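RNA from 26 samples was measured on the A and B chips of the Affymetrix HG-U133 set. The deposited signal is a linear intensity that the authors made with MAS5, per the submitters' processing notes; its version is not given in the sources used here. The 2% trimmed mean of each array was about 500, so arrays had been scaled alike. The deposited detection p-value gave the calls: present under 0.05, absent from 0.065, marginal between. The 52 deposited columns of calls were not used. Both deposited copies of the values differed by at most 5.0e-06 of a value.

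Apart from 136 controls, which were left out of tests, there were 44792 probe sets: 34491 named 1 gene, 1597 several and 8704 none. Of the single-gene probe sets 34454 matched RefSeq by gene ID. A probe set was tested if present on at least 2 of 26 arrays, which left 21528 (12539 on the A chip, 8989 on the B chip). Levels were not compared between probe sets.

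For each chip, log2 signal was modelled with group means in limma 3.58.1 (R 4.3.3), using eBayes with its trend option. Residual degrees of freedom were 13, and prior ones 6.81 (A) and 8.19 (B). P-values were two-sided and Benjamini-Hochberg adjusted over both chips for each comparison. The number of arrays limits the precision. The code was tested on simulated data.

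The members, gene lists and tests were chosen with earlier results of these data known. Named were all member probe sets, the 5 genes most like S100A11 over the group means, and up to 4 called genes per direction of the partner list. MYH9 of that list was named although it was not called, and ANXA9 is identified as chosen after its values were seen. The leading probe set of a gene had the highest mean log2 signal, with those marking cross-hybridisation taken last. Where the lower group had no present call, "at least" folds raised its signals to the lowest signal called present on their array; they are not confidence bounds.

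Alternatives were quantile normalization, centring on control probe sets, adding 32 before log2, no detection filter, no intensity trend, 1 leading probe set per gene, the replicate number as a block, the ACTB 3'/5' ratio as a covariate, a fit of only the groups compared, and leaving out each replicate.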

Additional observations from a re-analysis of the deposited data

How the results depend on the processing

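Of 31 single changes called, 31 kept their call with 32 added before log2 and with the replicate block, and 30 did with quantile normalization. With centring on control probe sets 6 lost it, without the intensity trend 6, without the detection filter 5, with only the groups compared 7, and with the ACTB 3'/5' ratio as a covariate 9. The cause was not tested. Member probe sets called higher on day 5 (5 of 13) were 3 with 1 leading probe set per gene, which has fewer probe sets, 3 with only the groups compared and 1 to 4 leaving out a replicate. Those higher on day 10 (7) were 3 with the ACTB covariate and 5 to 6 leaving out a replicate, and those lower (0) were 0 to 1, the 1 being S100A4 without day 10 replicate 1. Those higher in H9 than H1 day 0 (1) were 3 with quantile normalization, 3 with control centring, 4 with the replicate block, 6 with only the groups compared and 0 to 1 leaving out a replicate. HUES8 against H9 gave 1 higher with only the groups compared. Counts over all 21528 probe sets moved too. Higher on day 10 were 2426 in the main fit and 1191 with the ACTB covariate. Higher on day 5 were 1115, against 715 with only the groups compared and 773 of 12201 with 1 leading probe set per gene. Higher in H9 were 376, against 384 with quantile normalization, 274 with control centring, 687 with the replicate block and 1003 with only the groups compared. Over days 1, 2 and 4 to 10, 40 calls were higher (43 with the replicate block, 21 to 40 leaving out a replicate). Of these days 2 calls were lower: 1 with control centring, 1 without the detection filter, 1 without the trend, 4 with the replicate block and 1 to 3 leaving out a replicate. The day 3 dip (1) was found in 2 without the detection filter, 3 under the definition added later and 1 to 3 leaving out a replicate. The changes that turned sign were those of ANXA1 on day 10, from -0.0069 (without day 0 replicate 1) to 1.14 leaving out a replicate, and S100A4 on day 10, from -3.09 to 0.30 (without day 10 replicate 2). Replicate numbers were not taken as pairs: deviations of same-numbered samples correlated from -0.07 to 0.35 on the A chip, above 0.1 in 32 of 78 pairs of groups. Control centring moved the median of all probe sets to -0.17 on day 2 and 0.14 on day 10. It gave 267 higher and 250 lower probe sets on day 2, against 400 and 256, and S100A11 stayed called lower there. With 2 arrays per group, values near the detection limit (S100A4, the B chip probe set of S100A10) are the least certain.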
